A study of Mus musculus with 4 samples.

Results

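The probes studied here are the 4087 array probes whose names start with ASMM10SM, called SM probes below. They were chosen by name alone, among the 60691 distinct probes of a microarray read in mouse brown preadipocytes, and make up 6.73% of them. Each SM probe was spotted once per array, and 0 carried an outlier flag, so 4087 of 4087 entered the analysis. The other probes of the same design, 56554 in number, have names starting with ASMM10EP3A or ASMM10EP3B and served for comparison. The sources used here do not state which class of RNA the SM probes report. The files repeat the probe name in place of a gene, and 0 of the 4087 names matched the mouse gene or miRNA tables used here, so SM probes are given by ID only.

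Mice were 8 weeks old, and their brown preadipocytes were isolated by sorting for the surface profile Lin-CD29+CD34+Sca1+. The control pool, with the genotype EP3F/F, carried floxed alleles of EP3, a receptor for prostaglandin E2. The EP3 cKO pool, with the genotype Myf5CreEP3F/F, carried the same floxed alleles and Cre under Myf5, so a knockout in these mice is limited to cells descending from Myf5-expressing precursors. Each genotype was 1 sample pooled from approximately 30 mice. The sex is labelled male for both immunoprecipitated samples, while that label of the other 2 samples reads as the fraction.

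N6-methyladenosine (m6A) is a methyl mark that a METTL3-containing writer complex places on adenosines of many RNAs. Reader proteins that recognise it affect splicing, export, translation and decay, and 2 demethylases, FTO and ALKBH5, can take it off. Brown preadipocytes are the committed precursors of the thermogenic adipocytes of brown fat. An antibody against m6A splits total RNA into what it binds (IP) and what stays in the supernatant (Sup), so that a transcript with more of the mark is found to a larger part in IP. Per the labels, IP was labelled with Cy5 and Sup with Cy3, and both fractions of a genotype lay on 1 array. The 4 samples were thus read on 2 arrays.

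Well above background is a flag of the scanner software, set per spot and channel. A probe was usable when it carried this flag in all 4 signals, as 43838 array probes did. Each signal was divided by its median over these probes and taken to log2, and the m6A ratio was log2(IP/Sup). A ratio of 0 therefore means a split like that of the median signals, not equal amounts of RNA, and each probe's ratio also holds its own dye bias, since dye and fraction are the same on both arrays. Of the 4 fixed markers of other cells (Ptprc, Pecam1, Adipoq and Mbp), Mbp alone had a named probe, and the 5 preadipocyte markers and Ptger3, which encodes EP3, had none. Neither the cell type nor the genotype labels could be checked in the expression values. With 1 array per genotype there was no replicate check and no test, the number of arrays limits the precision, and differences were read against a 2-fold size rule, a log2 value of at least 1.

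The error behind a single value came from 2 sources, both technical. SM and other ASMM10 probes were each spotted once per array, so repeated spots came from 32 array probes with names starting with A_. These 32 lay in the brightness range of the SM probes. Their 273 spots had a pooled SD (log2) of 0.17 for the control ratio and 0.16 for the cKO ratio. For the difference between these ratios it was 0.20. The scanner software's own error of an SM signal had a median between 0.147 and 0.152 (log2) in the 4 channels. Combined as independent errors, they gave a median error of 0.30 for the difference in m6A ratio of an SM probe. Neither figure holds the variation between pools of mice.

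SM probes were detected less often than the pooled other ASMM10 probes in each of the 4 signals, but more often than the ASMM10EP3B probes among them. In IP, 2976 of 4087 SM probes (72.8%) were well above background in control and 2912 (71.3%) in cKO, against 79.4% and 76.5% of the other probes. In Sup the counts were 3124 (76.4%) in control and 3209 (78.5%) in cKO, against 81.0% and 82.5%. The ASMM10EP3B probes were at 71.0% and 67.7% in IP and 72.2% and 74.6% in Sup, with control given first. On each array the SM probes were thus detected more often in Sup than in IP. All 4 signals were well above background for 2754 SM probes (67.4%), and these are the usable SM probes. This share was 72.6% for the other ASMM10 probes, with 74.3% of the ASMM10EP3A and 63.1% of the ASMM10EP3B probes. At the other end, 760 SM probes (18.6%) were well above background in no signal, against 13.4% of the others.

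A one-sided detection leaned to Sup. Sup was detected on both arrays and IP on neither for 178 SM probes (4.36%), and IP on both arrays and Sup on neither for 30 (0.734%). Among the other probes these shares were 3.49% and 1.12%. For the 178 probes the IP signal gives only a bound. From values after normexp, loess and Aquantile, in which dye bias can remain because dyes were not swapped, Sup exceeded IP at least 2-fold for 13 of them in control and 10 in cKO. Bounds were not counted for the 1972 other ASMM10 probes of this pattern, so these counts have no share to be read against. The highest bound was at least 10.02-fold in control and at least 7.62-fold in cKO. The processed Sup signals of the 178 ran from 44.8 to 2415 in control, with a median of 77.9, and from 36.1 to 1671 in cKO, with a median of 67.7.

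Few SM probes were detected in both fractions of 1 genotype and in neither of the other. Both cKO signals and neither control signal were well above background for 13 SM probes (0.318%), beside 0.288% of all array probes, and the reverse held for 12 (0.294%), beside 0.335%. Of the first kind, ASMM10SM1100079695 had processed signals of 48.4 for IP and 39.5 for Sup in control, and 150.1 for IP and 78.7 for Sup in cKO. Its IP signal was at least 1.45-fold higher in cKO and its Sup signal at least 1.22-fold. ASMM10SM1100068249 followed with at least 1.43-fold in IP and 1.12-fold in Sup. Of the second kind, ASMM10SM1100053882 had processed signals of 72.6 for IP and 88.7 for Sup in control, and 48.8 for IP and 36.9 for Sup in cKO. Its bounds were at least 1.09-fold higher in control for IP and 1.23-fold for Sup, and those of ASMM10SM1100080597 were 1.08-fold and 1.17-fold. Each bound comes from normexp values with an offset of 50, then loess and Aquantile, and signals as dim as these leave little room under that offset. A bound under 2-fold therefore does not show that a difference was small.

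The usable SM probes were dimmer than the median usable probe in IP but not in Sup. Their median processed signal was 328 in control IP and 317 in cKO IP, 1.45-fold and 1.30-fold below the median of all usable probes. In Sup the medians were 482 in control and 442 in cKO, 1.03-fold and 1.08-fold above it. The ASMM10EP3B probes were nearly as dim in IP, with medians of 364 in control and 329 in cKO. Unlike SM probes they were also dim in Sup, at 379 and 344. The spread of the SM signals was also uneven between fractions. From the 5th to the 95th percentile they spanned 5.50 (log2) for IP and 6.97 for Sup in control, and 5.77 and 6.87 in cKO. The other ASMM10 probes spanned between 8.13 and 8.44 in all 4 signals. SM probes were therefore short of very bright signals, above all in IP. A signal at least 7 (log2) above the median was found for 20 of the 2754 SM probes in control IP (0.726%) and 28 in cKO IP (1.02%), against 2.29% and 2.75% of the other probes.

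A few SM probes were nonetheless among the bright spots of the arrays. The brightest on average over the 4 signals was ASMM10SM1100114719, with processed signals of 283315 for IP and 326921 for Sup in control, and 358700 for IP and 319452 for Sup in cKO. Next came ASMM10SM1100129028, with 389932 for IP and 218490 for Sup in control, and 504808 for IP and 240248 for Sup in cKO. The first had ratios of -0.22 (control) and 0.16 (cKO), and the second of 0.82 and 1.06, so that its IP exceeded its Sup 2.09-fold in cKO. Their m6A differences, cKO minus control, were 0.38 and 0.25, and these turned to -0.09 and -0.23 in the authors' deposited table and, for the second, to -0.04 with normexp.

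The first comparison asked how the SM probes divided between m6A-bound and unbound RNA within control preadipocytes. They lay toward the unbound side. Their median log2(IP/Sup) in control was -0.40, with quartiles at -1.03 and 0.03, against a median of -0.06 for the other ASMM10 probes. IP was at least 2-fold below Sup for 703 of the 2754 usable SM probes (25.5%), beside 17.1% of all usable probes, and at least 2-fold above it for 121 (4.39%), beside 17.6%. SM probes were thus over-represented on the low side, and under-represented on the high side. These shares rest on the scaling to all usable probes. With the SM probes' own medians as 0, the counts were 415 lower and 352 higher, 45.9% of calls higher in place of 14.7%. The gap between the medians of SM probes and of all usable probes, -0.32 in control and -0.22 in cKO, does not move with such a constant. It was smaller under the other corrections, at -0.18 in control and -0.11 in cKO with normexp, and -0.16 and -0.11 with normexp, loess and Aquantile.

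The gap was as large against probes of like brightness. The other ASMM10 probes were set in 10 strata of brightness and weighted so that each stratum held the same share as among SM probes. The matched probes had a median control ratio of -0.05, so the SM probes lay 0.35 (log2) below them. Of the matched probes, 15.7% were at least 2-fold lower in IP and 18.3% at least 2-fold higher. The SM median was the lower one in 10 of 10 strata, and SM probes had the larger share of 2-fold lower calls in 9 of 10. The gap was smallest in the dimmest stratum and largest in the brightest, without growing at every step between. In the dimmest stratum the medians were -0.06 for SM probes and 0.05 for the others, and 3.99% and 5.41% were at least 2-fold lower. In the brightest stratum they were -0.93 and -0.11, and 47.5% of SM probes against 26.8% of the others were at least 2-fold lower. That stratum is not matched as closely, since its other probes were brighter, with a median brightness of 4.38 (log2) against 3.46 for the SM probes.

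The lowest m6A ratios of the whole array belonged to SM probes. A control ratio of -3 or below, an IP signal at least 8-fold under Sup, was measured for 167 SM probes (6.06%) and 109 of the 41039 other ASMM10 probes (0.266%). At -4 or below there were 53 SM probes and 6 others, so that SM probes were 89.8% of them. At -5 or below, a 32-fold gap, there were 30 SM probes and 0 others. The cKO array gave the same order, with 96 SM probes and 33 others at -3 or below, 37 and 3 at -4 or below, and 15 and 0 at -5 or below. The counts were lower under other corrections. With normexp, 85 SM probes reached -3 in control and 47 in cKO, and with normexp, loess and Aquantile 96 and 42. These settings differ from the main one in several steps at once, and which of them lowered the counts was not tested.

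The 30 probes at -5 or below had bright Sup signals. Their processed Sup signals in control ran from 3216 to 51797 with a median of 22061, and their IP signals from 70.8 to 1266 with a median of 419. In cKO the Sup signals ran from 3057 to 44567 with a median of 20796, and the IP signals from 83.8 to 1801 with a median of 608. Their choice by control ratio and as usable probes fixes the low control ratios and the detection in IP, whereas the cKO values were not used to rank them. The lowest ratio was that of ASMM10SM1100091570, with processed signals of 111 for IP and 10889 for Sup in control, and 110.5 for IP and 7301 for Sup in cKO. Its Sup exceeded its IP 99.2-fold in control and 66.4-fold in cKO, ratios of -6.63 and -6.05. With normexp its control ratio was -5.11. ASMM10SM1100116273 had 94.5 for IP and 8829 for Sup in control, and 83.8 for IP and 5736 for Sup in cKO. Its ratios were -6.56 in control and -6.10 in cKO, and -4.64 in control with normexp. Whether some of these probes share a target could not be checked, since the files used here hold no probe sequences.

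High m6A ratios were rare among SM probes and reached less far. A control ratio of 2 or above was measured for 18 SM probes (0.654%), against 4.95% of the other ASMM10 probes, and of 3 or above for 4, against 303 others. ASMM10SM1100033521 was highest, with processed signals of 1034 for IP and 84.4 for Sup in control, and 819 for IP and 118 for Sup in cKO. Its ratio was 3.60 in control and 2.79 in cKO, and 1.99 in control with normexp. ASMM10SM1100043908 had 652 for IP and 61.2 for Sup in control, and 495 for IP and 59.5 for Sup in cKO, a ratio of 3.39 in control and 3.05 in cKO. With normexp its control ratio was 1.46. Both of these had a dim Sup signal. Their IP signals were above the SM medians of 328 in control and 317 in cKO, though far below those of the brightest SM probes.

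The cKO array ordered the SM probes much as the control array did. Over 2754 SM probes, Pearson's r between the ratios on the 2 arrays was 0.920 and Spearman's rho was 0.848. For the other ASMM10 probes these values were 0.891 and 0.876. The points share their arrays, dyes and scaling, and probes are not independent replicates. In cKO the SM median was -0.30, against -0.06 for the other probes both as they are and matched on brightness. IP was at least 2-fold below Sup for 590 SM probes (21.4%), beside 14.3% of all usable probes, and at least 2-fold above it for 133 (4.83%), beside 16.3%. Of the low calls, 522 were shared between arrays, 74.3% of the control calls and 88.5% of the cKO calls, against 65.1% and 77.7% in the other ASMM10 probes. Of the high calls 66 were shared, 54.5% of the control and 49.6% of the cKO calls, against 74.1% and 80.4% in the others. Of the 703 low calls in control, 1 lay at least 2-fold high in cKO, and of the 121 high calls 0 lay at least 2-fold low.

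The second comparison set the m6A ratios of SM probes in EP3 cKO against those in control. The cKO values lay somewhat above the control values. Genotype, pool, immunoprecipitation and array coincide here and cannot be told apart. Ratios also spread less in cKO, with an SD of 1.22 in control and 1.11 in cKO for SM probes. For the other ASMM10 probes the SDs were 1.11 and 1.02. The part of this narrower spread in the differences was not tested. The median m6A difference was 0.20, with quartiles at -0.14 and 0.46, against 0.03 for the other ASMM10 probes as they are and matched on brightness. The ratio was above its control value for 65.5% of SM probes and 53.3% of the others. At least 2-fold higher in cKO were 78 SM probes (2.83%), beside 1.99% of all usable probes, and at least 2-fold lower were 47 (1.71%), beside 3.29%. Of the matched other probes, 1.96% were higher and 3.44% lower. SM probes thus had more high and fewer low calls than the array as a whole, by about 1 and 2 percentage points, and 78.2% of them lay within 1.5-fold. The ASMM10EP3B probes leaned the same way but less far, with 2.31% higher, 2.71% lower and a median of 0.06. By stratum of brightness, SM probes had the larger share of higher calls in 5 of 10 and of lower calls in 1 of 10.

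The direction of the median depends on the scaling. In the authors' deposited table, which subtracts another constant from each column, the SM median was -0.28, with 10 SM probes higher and 219 lower, 4.37% of calls higher in place of 62.4%. The same constants put the median of all usable probes at -0.44. With the SM probes' own medians 37 were higher and 66 lower, 35.9% higher, and with normexp, loess and Aquantile 38 and 8, 82.6% higher. What these settings share is that SM probes lay above all usable probes, by 0.16 (log2) under each constant, 0.11 with normexp and 0.09 with normexp, loess and Aquantile. Each of the 78 and 47 calls exceeded 2 times the scanner's combined error of its own difference, which covers technical error only. The 2-fold rule nearly fixed this outcome, since the combined error had a 95th percentile of 0.455 (log2). It therefore adds no support for the calls.

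The gap to the other probes was larger among the brighter SM probes. Among the 1377 SM probes above the SM median in brightness, 52 were at least 2-fold higher in cKO and 16 lower (3.78% and 1.16%), and the median difference was 0.34. Of the other ASMM10 probes above the same brightness, 1.64% were higher and 3.58% lower. Among the other 1377 the counts were 26 and 31 (1.89% and 2.25%) and the median was 0.05, against 2.27% and 3.17% of the others. By stratum, the SM median difference ran between -0.05 and 0.10 in the 6 dimmer strata and between 0.28 and 0.40 in the 4 brighter ones. In the same 4 strata the other ASMM10 probes lay between 0.03 and 0.10. The SM median was the higher one in 8 of 10 strata. As for the ratio, the brightest stratum was not matched as closely, and the 2 groups split at the SM median were not matched further. The brighter SM probes also had lower control ratios, with a median of -0.56 against -0.27 in the dimmer ones. For the other ASMM10 probes these medians were -0.09 and -0.03. The part of the control ratio in the brightness pattern was not tested.

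The m6A difference also followed the control ratio. SM probes with control ratios of -3 to -4 had a median difference of 0.61, those from -1 to -2 of 0.32, those from -0.5 to 0 of 0.21, those from 0.5 to 1 of -0.16 and those above 2 of -0.63. The other ASMM10 probes went the same way, with 0.95, 0.29, 0.06, -0.13 and -0.40 in the same bins. Over the usable SM probes the control ratio and the difference correlated with r = -0.403, and over the others with r = -0.398. Both quantities contain the control signals, and the part of their shared error in this correlation was not tested. In the bin from -0.5 to 0, which held 789 SM and 8434 other probes, SM probes lay 0.15 above the others, while from -3 to -4 they lay 0.34 below. The upward gap of the SM probes was thus not the same at every level of the ratio.

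The probes with higher ratios differed mostly in IP. Of the 78, 46 were also at least 2-fold higher in IP and 3 in Sup, and the median IP difference was 1.20 against a Sup difference of 0.02. In control, 60 of the 78 had a ratio below 0 and 18 above it, while 738 of the 2754 usable SM probes (26.8%) lay above 0. The low tail at -3 or below gave 17 of the 78, beside 167 of all usable SM probes (6.06%). The make-up of m6A calls was not counted for the other ASMM10 probes. Over all usable probes, IP differences spread more than Sup differences, with SDs of 0.58 and 0.36 (log2). This wider spread bears on calls in both directions, and its part in their make-up was not tested. ASMM10SM1100142772 was highest among the brighter SM probes, with processed signals of 733 for IP and 2814 for Sup in control, and 3098 for IP and 2918 for Sup in cKO. Its Sup signals were alike and its IP signal was raised in cKO, so that its ratio went from -1.96 to 0.08, a difference of 2.04 with a scanner error of 0.29. ASMM10SM1100010895 had 2916 for IP and 30423 for Sup in control, and 8459 for IP and 27746 for Sup in cKO. Its ratio was -3.40 in control and -1.72 in cKO, a difference of 1.68. It kept a ratio far below 0 on both arrays.

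The probes with lower ratios were the mirror image in IP. Of the 47, 27 were at least 2-fold lower in IP and 0 in Sup, with a median IP difference of -1.08 and a median Sup difference of 0.15. In control, 36 of them had a ratio above 0, beside 26.8% of all usable SM probes. The median brightness of the 47 lay below that of all usable probes, at -0.96 (log2), against 0.88 for the 78 higher ones. ASMM10SM1100063496 was lowest among the brighter SM probes, with 1928 for IP and 705 for Sup in control, and 464 for IP and 701 for Sup in cKO. Its ratio was 1.43 in control and -0.60 in cKO, a difference of -2.04 with a scanner error of 0.29. ASMM10SM1100068725 had 981 for IP and 422 for Sup in control, and 291 for IP and 378 for Sup in cKO. Its ratio was 1.20 in control and -0.39 in cKO, a difference of -1.59. These 4 probes, the 2 highest and the 2 lowest, kept their side and their 2-fold size under each scaling and correction tried.

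The 167 SM probes of the low tail were chosen by their control ratio, so their differences are given as a description: error in the control signals enters both, and its part was not tested. The ratio was above its control value in 155 of them and at least 2-fold so in 17, with a median difference of 0.61. The 109 other ASMM10 probes at -3 or below had 102 above, 47 at least 2-fold so, and a median of 0.94. From the values of the authors' deposited table the median was 0.13 for the SM probes, with 110 of 167 above 0, and 0.46 for the others. The tail was not uniform in how its fractions differed. In 56 probes Sup was higher in cKO, with medians of 0.15 for Sup and 0.53 for IP. In the other 111 Sup was lower, with medians of -0.46 for Sup and 0.25 for IP. The 30 probes at -5 or below were higher in IP in 30 of 30, by a median of 0.69, with a median Sup difference of 0.06. Of the 7 SM probes at least 2-fold lower in Sup, 6 belonged to this tail.

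The third comparison asked how the fractions themselves differed between genotypes. After median scaling, Sup was close to the same on both arrays. Its SM median difference was 0.02, against 0.03 for the other ASMM10 probes, and 93.2% of SM probes lay within 1.5-fold. At least 2-fold higher in cKO Sup were 27 SM probes (0.980%), beside 1.00% of all usable probes, and at least 2-fold lower were 7 (0.254%), beside 0.623%. IP differed more. Its SM median difference was 0.19, against 0.08 for the others and 0.07 for the matched others. At least 2-fold higher in cKO IP were 130 SM probes (4.72%), beside 3.37% of all usable probes, and at least 2-fold lower were 37 (1.34%), beside 4.51%. The ASMM10EP3B probes also leaned upward in IP, with a median difference of 0.15, 3.64% higher and 2.97% lower. In Sup 0.243% of them were at least 2-fold lower, about the SM share. SM probes had the smaller share of lower IP calls in 10 of 10 strata of brightness. The medians rest on the scaling. Without it the SM median differences were -0.17 for Sup and -0.007 for IP, and in the authors' deposited table -0.01 and -0.32. Under each constant the gap of the SM median to that of all usable probes was 0.10 in IP and -0.009 in Sup. In the authors' deposited table the IP counts were 50 higher and 179 lower, 21.8% of calls higher in place of 77.8%, and without median scaling 84 and 68, 55.3% higher. For Sup the split of 79.4% higher became 58.6% without scaling and 42.9% with normexp, loess and Aquantile, on 29 and 7 calls.

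Abundance was taken as log2 of the sum of both scaled fractions, an approximation, since the fractions were labelled and scaled apart. In pooled cells of this kind, fewer cells that hold an RNA and less of it per cell cannot be told apart. SM probes with a 2-fold difference were mostly higher in cKO. There were 65 higher (2.36%), beside 1.73% of all usable probes, and 16 lower (0.581%), beside 1.87%, while the median was 0.08 against 0.05 for all usable probes. The ASMM10EP3B probes leaned the same way, with 106 higher (1.98%), 61 lower (1.14%) and a median of 0.09. By the authors' deposited table, 32 SM probes were higher and 29 lower, 52.5% of calls higher in place of 80.2%, and without scaling 44 and 27, 62.0% higher. With normexp it was 26 and 1, 96.3% higher.

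The 65 probes of higher abundance were chosen on a sum that contains IP, so their make-up is a description. All 65 were at least 2-fold higher in IP and 24 also in Sup (36.9%), with a median IP difference of 1.74 and a median Sup difference of 0.86. The m6A ratio was above its control value in 62 of them (95.4%), and the median ratio was 0.25 in control and 1.02 in cKO. Of the 693 other ASMM10 probes with the same call, 92.8% were at least 2-fold higher in IP and 48.3% in Sup, and 83.8% had a higher ratio. Of the 65 SM probes, 32 lay above the SM median in brightness. ASMM10SM1100015187 was highest among the brighter SM probes, with processed signals of 353 for IP and 150.0 for Sup in control, and 2034 for IP and 482 for Sup in cKO. It was 5.72-fold more abundant in cKO, 2.52 on the log2 scale and 1.74 with normexp, with differences of 2.72 in IP and 1.87 in Sup. ASMM10SM1100094251 had 219 for IP and 181 for Sup in control, and 1192 for IP and 610 for Sup in cKO. It was 5.15-fold more abundant, 2.36 on the log2 scale and 1.52 with normexp, by 2.64 in IP and 1.94 in Sup. In both probes each cKO signal exceeded the control signal of its fraction more than 3-fold.

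Of the 16 probes of lower abundance, 12 were at least 2-fold lower in IP and 4 in Sup. A control ratio of 1 or above was found in 11 of them, beside 121 of the 2754 usable SM probes (4.39%). The 16 were also chosen on a sum that contains IP, so their make-up is a description. It was not counted for the other ASMM10 probes. ASMM10SM1100121244 was lowest among the brighter SM probes, with 1507 for IP and 574 for Sup in control, and 472 for IP and 266 for Sup in cKO. Its abundance was 2.46-fold lower, with differences of -1.48 in IP and -0.92 in Sup. ASMM10SM1100077939 had 1277 for IP and 467 for Sup in control, and 336 for IP and 313 for Sup in cKO. Its abundance difference was -1.23 and its m6A difference -1.34, so that it was low in both measures. With normexp its abundance difference was -0.92, short of 2-fold.

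Measures of genotype were less correlated with each other over SM probes than over the other ASMM10 probes, taken without matching. The IP and Sup differences correlated with r = 0.391 and rho = 0.222 over 2754 SM probes and with r = 0.521 and rho = 0.409 over the other ASMM10 probes. The m6A and abundance differences correlated with r = 0.325 over SM probes and 0.512 over the others. These correlations are across probes of the same 2 arrays, and the measures share their 4 signals. The differences of the other probes also spread more. Their SDs were 0.59 for IP and 0.44 for abundance, against 0.50 and 0.37 for SM probes. The part of this spread in the correlations was not tested. Of the 78 SM probes with a higher m6A ratio, 23 were also at least 2-fold more abundant and 39 lay within 1.5-fold in abundance. Of the 47 with a lower ratio, 7 were also at least 2-fold less abundant and 27 lay within 1.5-fold.

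The authors' deposited table lists 3058 of the 4087 SM probes (74.8%) and 80.9% of the other ASMM10 probes. Tested on the files, the listed SM probes were those well above background in at least 1 of the 2 IP signals, 3058 of 3058, and 0 of the 1029 SM probes without such an IP signal were listed. The same held for the other ASMM10 probes, with 0 exceptions either way. The table thus leaves out RNAs found in Sup alone. Among SM probes 269 were well above background in at least 1 Sup signal and are not in it, and 178 of these were so in Sup on both arrays. For the listed SM probes the table's medians were -3.81 for IP and -2.89 for Sup in control, and -4.20 for IP and -2.82 for Sup in cKO, which places the SM probes below the table's own medians in IP (-3.36 and -3.85) and above them in Sup (-2.97 and -2.998).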

How the data were processed

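RNA of sorted brown preadipocytes was split by an m6A antibody and hybridised on 2 two-colour arrays, 1 per genotype. Per the file headers and the submitters' processing notes, Agilent Feature Extraction 11.0.1.1 was used. The deposited processed signal is an intensity with local background subtracted and dyes normalised within the array, per the file headers. The authors' deposited log2 value table equalled, for SM probes, log2 of the processed signal minus a constant per column (in control 11.92 for IP and 11.51 for Sup, in cKO 12.23 and 11.36), whose origin these sources do not state. Its columns without a mapped sample numbered 0. Saturated spots of SM probes numbered 0.

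Repeated spots were averaged as log2 values, and a probe counted as well above background when at least 0.5 of its spots were. Other probes were matched to SM probes in 10 strata, deciles of the mean log2 of the 4 signals over usable SM probes. Alternatives covered scaling, background correction, filters, the size rule and the matching. Normexp (offset 50, on pixel medians, without dye normalisation), loess and Aquantile used limma 3.58.1 in R 4.3.3, and other steps Python 3.11.15, numpy 2.4.6 and pandas 2.3.3. Simulated data with known differences were used to check the calculation. The members, lists and comparisons were chosen with earlier results of these data known. By the naming rule, IDs shown are the 2 at each end of the m6A and abundance differences among SM probes brighter than their median, of the control ratio, of detection in 1 genotype and of brightness.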

Additional observations from a re-analysis of the deposited data

How the results depend on the processing

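With 1 array per genotype no replicate could be left out. No paired analysis was possible because each group holds 1 sample. Counts below are SM probes, lower then higher in IP for ratios, and lower then higher in cKO for differences. Without median scaling, abundance gave 27 lower, IP 68 and 84, and Sup 12 and 17. With the SM probes' own medians, the median ratio turned to 0.17 in control and 0.19 in cKO, the ratio counts were 415 and 352 in control and 376 and 369 in cKO, 37 were higher in m6A, 25 lower in abundance and 61 lower in IP, and the tail at -3 held 85 in control and 51 in cKO. In the authors' table the median ratio was -0.79 in control and -1.17 in cKO, and the median m6A difference turned to -0.28. Its ratio counts were 1077 and 57 in control and 1594 and 17 in cKO, its m6A counts 219 and 10, abundance 29 and 32, IP 179 and 50, and the cKO tail 224. Normexp gave ratio counts of 448 and 56 in control and 383 and 48 in cKO, m6A 8 and 14, abundance 1 and 26, IP 12 and 55, Sup 4 and 6, and tails of 85 and 47. Normexp with loess and Aquantile gave 453 and 44, 366 and 62, 8 and 38, 1 and 24, 11 and 60, 4 and 3, and tails of 96 and 42, in the same order. The offset of 50 draws dim log ratios toward 0. With no detection filter, over 4087 probes, 271 were high in control and 890 low and 288 high in cKO, m6A gave 199 and 232, abundance 41 and 113, IP 132 and 255, and Sup 62 and 112. Among the 1289 SM probes brighter than the median usable probe, the median control ratio was -0.57, ratio counts were 450 and 40 in control and 364 and 56 in cKO, m6A 14 and 50, abundance 7 and 29, IP 14 and 62, and 9 were higher in Sup. At 1.5-fold the counts were 1120 and 266 in control, 980 and 315 in cKO, m6A 174 and 426, abundance 66 and 179, IP 138 and 394, and Sup 57 and 130. With the positive and significant flag, detection was 87.9% for IP and 90.5% for Sup in control, and 86.5% and 91.8% in cKO. The make-up of calls, the brightness groups, ratio bins, overlaps, correlations and tails beyond -3 were not recomputed under these settings, and the cause of the other shifts was not tested. The tail counts were added after the ratios were seen. With 20 strata, strata on Sup or no matching, the gap of the median ratio to the other probes stayed between -0.35 and -0.34 in control and between -0.24 and -0.23 in cKO. Of 95 values for named probes under the alternatives, 90 kept their sign and their side of 2-fold, 2 fell short of it (ASMM10SM1100077939 in abundance, -0.92 with normexp and -0.91 with loess and Aquantile) and 3 turned sign, those of ASMM10SM1100114719 (-0.094) and ASMM10SM1100129028 (-0.23) in the authors' table and of the latter with normexp (-0.037).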
